A study of Mus musculus with 6 samples.

Results

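The metabotropic glutamate receptors are the G protein-coupled receptors for glutamate, and 6 of their genes (Grm2, Grm3, Grm4, Grm5, Grm7 and Grm8) were followed in the hippocampus of mice homozygous for a deletion allele of Tet1 and of wild-type mice. They were taken by gene symbol from a table of 23361 genes, and all 6 were present. Each had a mean of at least 1 FPKM (sequenced fragments, corrected for transcript length and for the number of fragments mapped), so all 6 were among the 12533 genes tested. The labels name the genotypes as Tet1Δe4-/- (called Tet1-deficient here) and Tet1+/+ (wild-type), with 3 libraries of whole hippocampus each. Animals of both genotypes had received electroconvulsive shock through the ears, with a current of 18 mA at 100 Hz, pulses of 0.2 ms and a train of 1.15 seconds, which evokes a tonic-clonic seizure. The tissue was taken 1.5 to 2 hours afterwards. No libraries of mice without shock were analysed here, so these are levels after a seizure in either genotype. Strain and age were not stated in the sources used here. Tet1 encodes an enzyme that oxidises 5-methylcytosine in DNA.

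Metabotropic receptors differ from the glutamate-gated ion channels in that they act through G proteins, over a slower course. Group I receptors, of which the product of Grm5 is followed here, sit mainly beside the postsynaptic density, couple to Gq and phospholipase C, and can trigger a long-term depression of synapses that needs local protein synthesis. Group II (Grm2 and Grm3) and group III receptors (Grm4, Grm6, Grm7 and Grm8) couple to Gi/o, lower cyclic AMP and, on axon terminals, reduce transmitter release. In the hippocampus the mGlu2 protein is known from the mossy fibre axons of dentate granule cells, mGlu3 from neurons and astrocytes, and mGlu7 from the active zones of presynaptic terminals.

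None of the 6 receptor genes passed the threshold for a genotype difference. Grm2 came nearest: every Tet1-deficient library lay below every wild-type library, and the mean was 72.2% of wild-type. Grm8, the scarcest member, also lay lower without overlap, at 79.0% of wild-type. The other members overlapped between genotypes in the deposited values, with Tet1-deficient means between 94.6% (Grm4) and 107% (Grm3) of wild-type. Within both genotypes, the levels of Grm5, Grm3 and Grm4 separated the same 2 libraries from the other 4.

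Some features of the libraries bear on these values. Wild-type replicate 1 and Tet1-deficient replicate 1 stood apart from the other 4 libraries on the first principal component of the tested genes, which held 53.3% of the variance, and 63.5% of tested genes had values in these 2 libraries that did not overlap those of the other 4. Wild-type replicate 1, the library whose title carries an f where the others carry an m, was the only library with abundant Xist (63.5 FPKM against at most 0.202 FPKM elsewhere). Ddx3y of the Y chromosome was at 0.0381 FPKM there, against 16.7 to 35.2 FPKM elsewhere. By these 2 genes it was the only female library, so sex was not balanced between genotypes. It held the highest Grm2 and Grm3 values, and the part of sex in them was not tested. Tet1 itself ranged from 0.718 to 0.977 FPKM in the Tet1+/+ libraries and from 0.638 to 0.740 FPKM in the Tet1Δe4-/- libraries, and a value over the whole gene does not check a deletion within it. Markers of cell types of the hippocampus were present in every library: Prox1 of dentate granule cells at 21.1 to 42.8 FPKM and Mpped1 of CA1 pyramidal cells at 58.4 to 74.5 FPKM. Of interneurons, Gad1 was at 93.1 to 108 FPKM and Sst, the most abundant marker of that list, at 149.8 to 332.4 FPKM. Fezf2, the most abundant marker of the neocortex and subiculum list, was present too, at 16.26 to 20.99 FPKM. The limits of the dissection were not tested. Gabra6 of cerebellar granule cells was at 0 to 0.0150 FPKM, but it is 1 of 7 genes of its list. Fat2, Barhl1 and Cbln3 were low too (at most 0.184 FPKM). Neurod1, the most abundant of the list, was at 15.05 to 18.03 FPKM, and Cbln1 and Zic2 were at 1.17 to 4.58 FPKM. The absence of cerebellar tissue is therefore not shown by Gabra6 alone. Ttr of the choroid plexus ranged from 3.44 to 294 FPKM and was high in wild-type replicate 3 and Tet1-deficient replicate 2. FPKM values hide the read depth, which is unknown, and the replicate numbers are names that pair no libraries.

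The 6 genes are protein-coding and lie on 5 chromosomes (mm10). Grm5 spans 87584168 to 88134907 on chromosome 7, Grm2 106643095 to 106656082 on chromosome 9, Grm3 9485541 to 9725170 on chromosome 5 and Grm4 27422387 to 27521403 on chromosome 17. Grm8 (27275119 to 28135178) and Grm7 (110645581 to 111567230) are both on chromosome 6. GENCODE M21 places the antisense gene Gm28111 over the 3′ end of Grm2 and the antisense gene Gm20387 over the 5′ end of Grm7, on the opposite strands. Whether the libraries kept strand is not stated in the sources used here, and reads of overlapping partners cannot be told apart without it.

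Because Tet1 acts on methylated cytosine, which in mammalian DNA lies mostly in CG pairs, the CG content before the transcription starts is shown for the members with a sequence in the RefSeq promoter table (GRCm38.p6). These are 4 of the 6, and Grm4 and Grm5 had no entry. Grm2 and Grm8 are the members whose genotypes did not overlap, and Grm3 and Grm7 are set beside them. Each line gives the 250 bases before the start, read 5′ to 3′ on the gene's strand, with every CG in capitals. Where the table lists several starts, the most upstream is printed. The windows are chr9:106656110-106656359 (minus strand) for Grm2, chr6:28135147-28135396 (minus strand) for Grm8, chr5:9725353-9725602 (minus strand) for Grm3 and chr6:110645262-110645511 (plus strand) for Grm7.
Grm2: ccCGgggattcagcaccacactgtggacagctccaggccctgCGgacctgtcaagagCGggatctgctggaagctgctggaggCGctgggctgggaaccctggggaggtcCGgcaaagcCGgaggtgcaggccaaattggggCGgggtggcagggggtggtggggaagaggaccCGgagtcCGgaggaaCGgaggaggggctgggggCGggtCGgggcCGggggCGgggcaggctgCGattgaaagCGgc
Grm8: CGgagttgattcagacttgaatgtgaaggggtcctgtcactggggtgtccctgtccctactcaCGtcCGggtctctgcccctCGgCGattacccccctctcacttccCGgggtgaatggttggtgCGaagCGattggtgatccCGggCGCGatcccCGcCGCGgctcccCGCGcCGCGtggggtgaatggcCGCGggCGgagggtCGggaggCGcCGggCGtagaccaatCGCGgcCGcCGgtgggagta
Grm3: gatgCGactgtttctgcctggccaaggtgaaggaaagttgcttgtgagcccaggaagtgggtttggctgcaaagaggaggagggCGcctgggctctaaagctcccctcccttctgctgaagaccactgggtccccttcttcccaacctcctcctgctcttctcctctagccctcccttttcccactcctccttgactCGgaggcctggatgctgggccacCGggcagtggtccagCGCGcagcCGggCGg
Grm7: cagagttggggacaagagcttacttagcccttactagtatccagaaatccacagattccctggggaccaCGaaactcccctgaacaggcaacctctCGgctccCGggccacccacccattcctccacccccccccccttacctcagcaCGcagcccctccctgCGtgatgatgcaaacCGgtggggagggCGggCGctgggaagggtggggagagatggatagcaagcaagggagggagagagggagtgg

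The Grm8 window held 29 CG pairs, and 6.78% of the 32851 promoter windows in the table held as many or more. Grm2 had 16, a count that 25.4% of windows reached. Grm3 and Grm7 had 8 each, which 43.0% of windows reached, and 92.1% of all windows held at least 1. CG is its own reverse complement, so a count on either strand is the same. The further starts listed for Grm8 had 8 and 2 CG pairs and that of Grm7 had 9, so the count depends on the start that is used. Methylation at these sites was not analysed here, and a link between CG count and genotype difference was not tested.

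**Figure D1:**
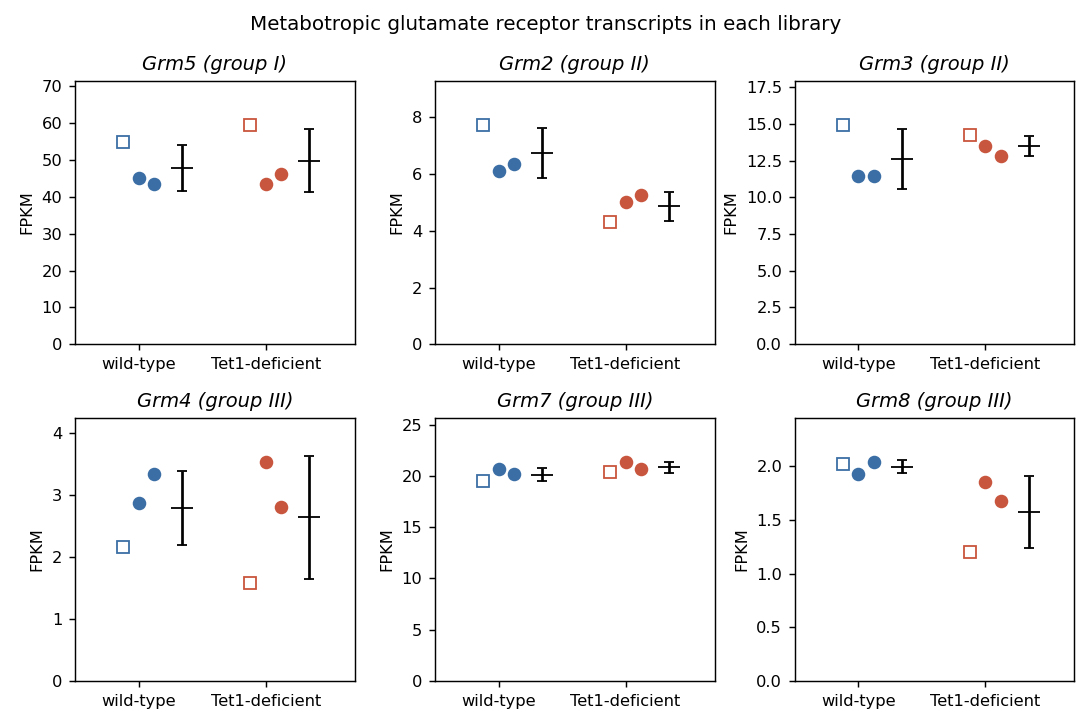
FPKM of each receptor gene in the 3 wild-type (blue) and 3 Tet1-deficient (red) libraries, with the mean and SD of each genotype at the right of its points; open squares are the 2 libraries that stand apart on the first principal component. Grm2 and Grm8 are lower in every Tet1-deficient library, and Grm5 is highest in the open squares of both genotypes.

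Grm5, the group I member and the most abundant receptor gene, differed by less than the spread between replicates. In wild-type hippocampus Grm5 read 55.0, 45.0 and 43.6 FPKM over the libraries, and in Tet1-deficient hippocampus 59.5, 43.5 and 46.3 FPKM. In both genotypes replicate 1 was the high library, and the remaining values of the genotypes interleaved. The wild-type mean was 47.9 ± 6.21 FPKM and the Tet1-deficient mean 49.8 ± 8.56 FPKM (SD, n = 3). The log2 difference, Tet1-deficient minus wild-type on the log2(FPKM + 1) scale, was 0.05 with an SE of 0.15 and an adjusted p of 1.00 by limma (95% interval −0.31 to 0.41). By exact permutation, two-sided, p was 0.7, and 3 libraries against 3 cannot go below 0.1. Its sign turned without wild-type replicate 3 (−0.01) and without Tet1-deficient replicate 1 (−0.08).

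Grm2, a group II gene whose product damps glutamate release from axon terminals, was lower in Tet1-deficient hippocampus in 3 of 3 libraries against 3, though it did not pass the threshold. Wild-type values were 7.74, 6.11 and 6.36 FPKM, against 4.30, 5.01 and 5.28 FPKM in the Tet1-deficient group. The lowest wild-type value was thus above the highest Tet1-deficient value, with the 2 libraries that stand apart at opposite ends, the highest of all in wild-type and the lowest of all in Tet1-deficient hippocampus. The means were 6.73 ± 0.877 and 4.86 ± 0.505 FPKM (SD, n = 3). This is a log2 difference of −0.40 (SE 0.12, 95% interval −0.68 to −0.12). Its unadjusted limma p was 0.0124, and its adjusted p was 1.00. By unadjusted p it ranked 69 among the 12533 tested genes. By exact permutation, two-sided, p was 0.1, the smallest that 3 against 3 can give.

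These values of Grm2 are read against all genes. An adjusted p under 0.05 was reached by 4 genes, or 0.0319% of those tested, and by 0 of the 6 receptors. That count of 4 was 1 when wild-type replicate 2 was left out and 1 when Tet1-deficient replicate 3 was, 0 when wild-type replicate 3 was left out and 0 when Tet1-deficient replicate 2 was, and 59 with estimated library weights. An unadjusted p under 0.05 was reached by 171 genes (1.36%), 115 of them lower (0.918%), and by 1 of the 6 receptors, Grm2. The genotypes did not overlap for 517 genes (4.13%), with 277 (2.21%) lower in Tet1-deficient libraries, and the 2 receptors without overlap, Grm2 and Grm8, were both lower.

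The sign of the Grm2 difference was the same in all 15 alternatives run, and the size was not. It was −0.22 with estimated library weights (adjusted p 0.248 by limma, the smallest over the alternatives) and −0.24 in the 4 libraries that lie together, against −0.31 to −0.46 when 1 library was left out. Those 4 libraries hold the wild-type values of 6.11 and 6.36 FPKM and the Tet1-deficient values of 5.01 and 5.28 FPKM, so the genotypes were still separate. Of the marker lists of hippocampal neurons, that of CA1 pyramidal cells was lower in Tet1-deficient libraries for 8 of 8 genes, with no marker at 0 and with summed levels of 278 to 301 FPKM against 243 to 269 FPKM, wild-type first. Markers of dentate granule cells, in which Grm2 is known to be expressed, were higher for 8 of 10 genes, with overlapping sums of 101 to 109 and 85.9 to 128 FPKM. Outside the neurons, markers of endothelial cells and pericytes were lower for 12 of 12 genes (median log2 difference −0.27, sums of 53.7 to 98.8 against 47.1 to 75.1 FPKM) and those of meningeal fibroblasts for 8 of 8 (median −0.59, sums of 41.4 to 104 against 40.5 to 59.5 FPKM), with larger medians than the −0.17 of the CA1 list and with overlapping sums. Dcn is on both the CA1 list and the meningeal fibroblast list. It read 33.0 FPKM in wild-type replicate 1, against 21.4 FPKM in Tet1-deficient replicate 3. These libraries held the lowest wild-type CA1 sum (278 FPKM) and the highest Tet1-deficient one (269 FPKM). Their Dcn values lay farther apart than their CA1 sums, so these sums are separate only with Dcn counted. No gene of these lists passed the threshold in limma. The part of cell composition in the Grm2 values was not tested, and in bulk tissue fewer cells of a type and less RNA per cell cannot be told apart.

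Grm3, the other group II gene, did not follow Grm2. Wild-type values were 14.9, 11.5 and 11.4 FPKM, against 14.2, 13.5 and 12.8 FPKM in the Tet1-deficient group. All Tet1-deficient values fell between wild-type replicate 1 and the other wild-type libraries, so the genotypes overlapped through that library alone. The means were 12.6 ± 2.01 and 13.5 ± 0.694 FPKM (SD, n = 3), with a log2 difference of 0.10 (SE 0.12, adjusted p 1.00 by limma, 95% interval −0.19 to 0.39). The difference was 0.22 without wild-type replicate 1 (unadjusted p 0.0553 and adjusted p 0.874 by limma), and it was 0.04 without wild-type replicate 2 or 3. In the 4 libraries that lie together it was 0.18 (unadjusted p 0.0237 and adjusted p 0.9993 by limma). In that setting, added after the data were seen, 484 of 12533 genes had an unadjusted p under 0.05.

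The group II genes had differences of opposite sign, so their ratio within each library, which does not depend on how a library is scaled, was examined. The ratio of Grm3 to Grm2 FPKM was 1.93, 1.88 and 1.80 in the wild-type libraries and 3.30, 2.69 and 2.43 in the Tet1-deficient libraries, again without overlap. The wild-type ratios stayed close together in spite of the high values of both genes in replicate 1. This ratio was chosen after the values of its members were seen. Its separation was not particular to group II. The ratio of Grm5 to Grm2 did not overlap either (6.86 to 7.37 against 8.69 to 13.85, wild-type first). Nor did that of Grm7 to Grm8 (9.65 to 10.74 against 11.56 to 16.97), while that of Grm5 to Grm7 overlapped. The summed level of Grm2 and Grm3 showed no such separation, at 17.6 to 22.7 FPKM against 18.1 to 18.5 FPKM, wild-type first.

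Among group III genes, Grm8, which encodes a presynaptic receptor, was scarce and lower in Tet1-deficient hippocampus. Its wild-type values were 2.02, 1.93 and 2.04 FPKM, and its Tet1-deficient values 1.20, 1.85 and 1.68 FPKM. The wild-type values agreed closely, while Tet1-deficient replicate 1 lay well under the other libraries of its genotype and replicate 2 lay just under the wild-type range. The means were 2.00 ± 0.0613 and 1.58 ± 0.337 FPKM (SD, n = 3). The log2 difference was −0.23 (SE 0.12, unadjusted p 0.0989 and adjusted p 1.00 by limma, 95% interval −0.51 to 0.06), and the exact permutation p was 0.1. On this scale the pseudocount of 1 FPKM weighs on so low a gene, and with 0.1 FPKM the difference was −0.34.

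The Grm8 difference rested in large part on Tet1-deficient replicate 1. Without that library it was −0.12 (unadjusted p 0.266 by limma), in the 4 libraries that lie together −0.11, and with library weights −0.14. Tet1-deficient replicate 1 also had the lowest summed level of the 12 GABAergic interneuron markers (777 FPKM, against 908 to 1019 FPKM in the other Tet1-deficient and 872 to 1127 FPKM in the wild-type libraries). Of these markers 11 of 12 were lower in Tet1-deficient hippocampus and none was at 0. That library also had the lowest sum of the 6 libraries for other lists, in all for 6 of the 15 cell type and region lists, the others being those of oligodendrocytes (3136 against 3438 to 4074 FPKM), their precursors (184.5 against 214 to 261 FPKM), dentate granule cells, thalamus and habenula, and neocortex and subiculum. The part of these cells in the Grm8 values was not tested.

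Grm7, which encodes a low-affinity receptor of the presynaptic active zone, was the steadiest member. Values of 19.5, 20.7 and 20.2 FPKM were found in wild-type, and of 20.4, 21.4 and 20.7 FPKM in Tet1-deficient libraries. The genotypes overlapped in the deposited values but not after median-of-ratios scaling, where the Tet1-deficient libraries were higher (20.6 to 21.2 against 19.8 to 20.5 FPKM). The means were 20.1 ± 0.614 and 20.8 ± 0.517 FPKM (SD, n = 3), and the SD was 3.05% of the mean in wild-type and 2.48% in Tet1-deficient hippocampus. The log2 difference was 0.05 (SE 0.08, adjusted p 1.00 by limma), and its 95% interval from −0.14 to 0.24 was the narrowest of the 6.

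Grm4, a further presynaptic receptor gene of group III, was the most variable. Wild-type replicates 1 to 3 had 2.16, 2.87 and 3.34 FPKM, and Tet1-deficient replicates 1 to 3 had 1.57, 3.54 and 2.81 FPKM. Replicate 1 was the low library in both genotypes and the ranges overlapped widely. The SD was 21.4% of the mean in wild-type and 37.6% in Tet1-deficient hippocampus (means 2.79 ± 0.597 and 2.64 ± 0.993 FPKM, SD, n = 3). The log2 difference was −0.09 (SE 0.23, adjusted p 1.00 by limma), with a 95% interval from −0.62 to 0.45 that leaves room for a change of either sign. It turned positive without Tet1-deficient replicate 1 (0.15), without wild-type replicate 3 (0.02) and in the 4 libraries that lie together (0.02). Grm6, whose product serves the ON bipolar cells of the retina, is not among the 6 and was listed at 0 in every library.

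**Figure D2:**
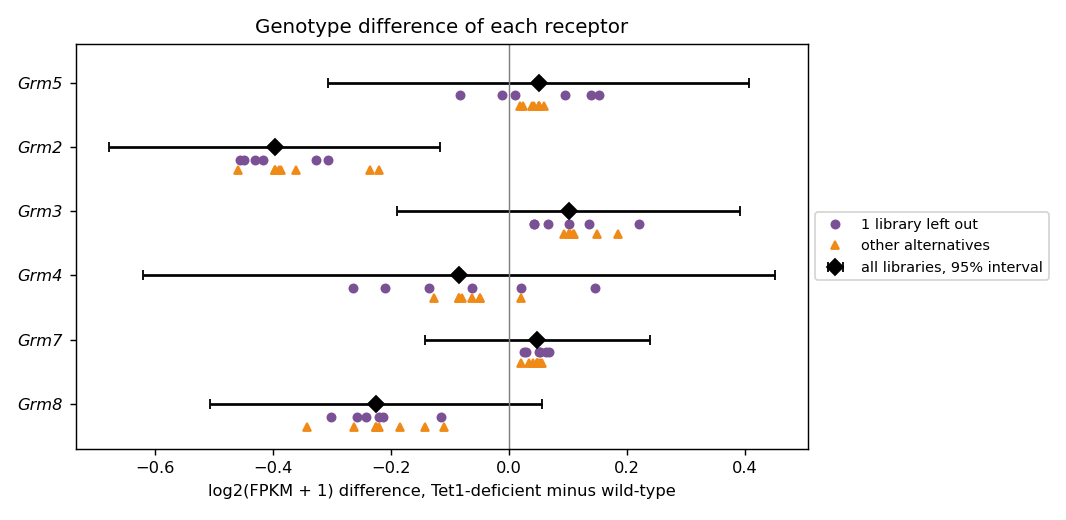
Genotype difference of each receptor gene on the log2(FPKM + 1) scale, with the 95% interval of limma (diamonds and bars), the value with each library left out (circles) and the values under the other alternatives (triangles). The interval of Grm2 lies below 0 before adjustment over all genes, and the circles of Grm4 and Grm5 lie on both sides of 0.

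FPKM is scaled by transcript length, so the levels of the receptors can be set side by side. The order of mean FPKM over the 6 libraries was Grm5 (48.8), Grm7 (20.5), Grm3 (13.1), Grm2 (5.80), Grm4 (2.72) and Grm8 (1.79). This order held in 6 of 6 libraries for each of the 5 pairs of neighbours. The exact two-sided permutation p, with signs of the within-library log2 differences flipped, was 0.03125 for each pair and also 0.03125 after Benjamini-Hochberg adjustment over the 5, the smallest that 6 libraries can give. The order and its pairs were taken from the same 6 libraries, so these p-values are not independent support for the ranking.

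The closest neighbours were Grm4 and Grm8. Their ratio was 1.52 between means but fell to 1.07 in wild-type replicate 1, and over all libraries their ranges overlapped (1.57 to 3.54 and 1.20 to 2.04 FPKM), so apart from the within-library order these levels do not differ beyond their spread. Grm2 exceeded Grm4 by 1.41 to 3.58 times, Grm3 exceeded Grm2 by 1.80 to 3.30 times, Grm7 exceeded Grm3 by 1.30 to 1.81 times, and Grm5 exceeded Grm7 by 2.03 to 2.92 times. Grm5 alone made up 49.0% to 58.8% of the summed FPKM of the 6 genes. The share of Grm2 in that sum was 6.93% to 7.63% in wild-type and 4.25% to 5.89% in Tet1-deficient libraries. The sum itself was similar, at 87.0 to 101 FPKM against 88.8 to 101 FPKM, wild-type first.

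**Figure D3:**
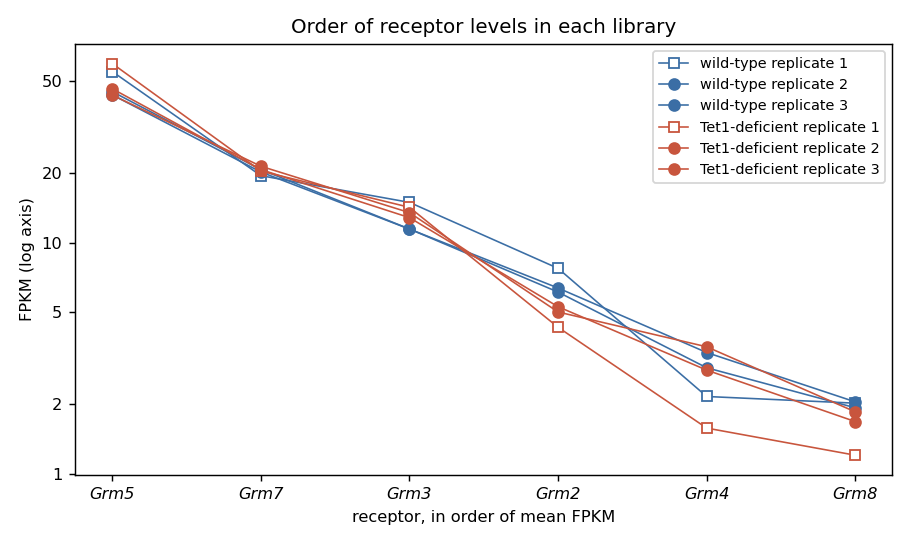
FPKM of the 6 receptor genes on a log axis, in order of their mean, with a line for each library; blue is wild-type, red is Tet1-deficient, and open squares are the 2 libraries that stand apart. Every line descends from Grm5 to Grm8, and the lines lie closest together at Grm7 and farthest apart at Grm4, Grm2 and Grm8.

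In 3 of the 6 members the values followed the library split, with no overlap between the 2 libraries that stand apart and the other 4. Across all tested genes 63.5% were without overlap in this way, a larger share than among the receptors. For Grm5 and Grm4 the SD within each genotype was also larger than the difference between the genotype means. For Grm3 this held in wild-type alone. In the 2 libraries that stand apart, Grm5 measured 55.0 and 59.5 FPKM, above the 43.5 to 46.3 FPKM of the other 4. Grm3 was also higher there (14.2 and 14.9 against 11.4 to 13.5 FPKM), and Grm4 lower (1.57 and 2.16 against 2.81 to 3.54 FPKM). Grm2, Grm7 and Grm8 had overlapping values. The astrocyte list, of cells that are known to express Grm3 and Grm5, had its highest summed levels in the same 2 libraries (1423 and 1461 against 1241 to 1335 FPKM). Aldoc, the most abundant gene of the list, overlapped (266.8 and 331.1 against 324.4 to 345.9 FPKM), while Slc1a2 was higher there (364.1 and 387.5 against 278.1 to 320.2 FPKM). The markers of the list did not move as one. Of the 12, 6 were higher in these 2 libraries without overlap, 2 were lower (Aldh1l1, at 15.9 and 16.1 against 21.5 to 22.9 FPKM, and Fgfr3) and 4 overlapped. The interneuron list had its lowest sums there (777 and 872 against 908 to 1127 FPKM), with 4 of 12 markers lower without overlap, 1 higher (Gad2, at 34.8 and 36.9 against 29.1 to 33.5 FPKM) and 7 overlapping. Slc1a2, Aldh1l1, Fgfr3 and Gad2 were named after their values were seen. The part of these cells in the receptor levels was not tested. With the split as a term in the model, the SE of the genotype difference fell from 0.15 to 0.05 for Grm5 and from 0.23 to 0.11 for Grm4, the smallest adjusted p among the 6 was 0.570 by limma (Grm2, log2 difference −0.40), and 8 genes passed in all.

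The genes whose pattern over the 6 libraries was most like that of a receptor were taken by Pearson's r of log2(FPKM + 1). All of these values share the libraries and their scaling, and with 6 points among 12532 other genes high values are common. For Grm2 the nearest were Slc1a4, a transporter gene for neutral amino acids (r = 0.995, Spearman's coefficient 1.00), Slc24a6 (0.982, Spearman 1.00) and Tnc, which encodes the matrix protein tenascin-C (0.981, Spearman 0.943). Without the 2 libraries farthest from the Grm2 median, r was 0.986, 0.967 and 0.971 in this order. The libraries that remain were also part of the choice of these genes. Such values, here and below, are therefore not independent support for the likeness. For Grm8 the nearest genes were Tmem255b (0.992, Spearman 0.943), Tox (0.989, Spearman 1.00) and Rap1gap2 (0.984, Spearman 1.00), with 0.828, 0.914 and 0.912 when the farthest 2 were left out.

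The numbers of genes with r above 0.95 differed widely between receptors. There were 20 for Grm2, 27 for Grm7, 38 for Grm8, 44 for Grm3, 395 for Grm4 and 1464 for Grm5. The receptors with the longest lists, Grm5 and Grm4, are among those that separate the 2 libraries that stand apart. The gene nearest to Grm5 was Nampt, of NAD synthesis (r = 0.999, Spearman 1.00), and that nearest to Grm4 was Auts2 (0.999, Spearman 1.00). Without the 2 libraries farthest from the receptor's median, which were those that stand apart, r was 0.991 for Nampt and 0.993 for Auts2. Grm3 was nearest to Set (0.989, Spearman 1.00) and Grm7 to Spsb1 (0.986, Spearman 0.886), and without the farthest 2 libraries these were 0.967 and 0.914. Between the receptors themselves, Grm5 and Grm4 ran in opposite directions (r = −0.98), and Grm2 and Grm8 in the same direction (r = 0.823, Spearman 0.886).

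Genes that work with the receptors were taken from 7 lists, and no list held a gene that passed the threshold. Of 109 tested pathway genes, 0 passed the threshold in limma, 65 were higher and 44 lower, 1 had an unadjusted p under 0.05 (1.36% of all tested genes did), and 4 did not overlap between genotypes (4.13% of all tested genes did not). Neither share of the pathway genes was above that of all genes. Their median log2 difference was 0.01, as was the median of all tested genes (0.01, quartiles −0.05 and 0.06). With estimated library weights 1 of them passed (Rgs9, adjusted p 0.0458 by limma, where 0.471% of all tested genes passed). With these weights 10 of the 109 had an unadjusted p under 0.05, a share no larger than the 9.83% of all tested genes.

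Partners of group I receptors at the postsynaptic density were higher for 11 of 15 genes, with 0 called and a median of 0.06. Homer1, whose products link mGlu5 to the Shank scaffold and to internal calcium stores, had wild-type values of 207, 161 and 150 FPKM and Tet1-deficient values of 229, 159 and 200 FPKM (log2 difference 0.18, adjusted p 1.00 by limma). Its replicate 1 was highest in both genotypes, as was that of Grm5. Homer3, of the same scaffold family, had a log2 difference of 0.14 with overlapping libraries.

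On the Gq side, 7 of 15 genes were higher and 8 lower (median 0.00, 0 called). The smallest unadjusted p-values were in the channel gene Trpc5 (0.16, p 0.149) and the phospholipase gene Plcb4 (−0.11, p 0.284). On the Gi/o side, 11 of 19 were higher and 8 lower (median 0.00, 0 called). Gnao1, the most abundant of these and the gene of the Go alpha subunit, had 265 ± 4.46 and 261 ± 2.73 FPKM (SD, n = 3). Adcy8, an adenylyl cyclase gene, differed by −0.14 and Kcnj9, a subunit gene of G protein-gated potassium channels, by −0.26, both with overlapping libraries.

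Regulators of G protein signalling and receptor kinases held 2 of the 4 pathway genes without overlap. Of 20 genes, 13 were higher and 7 lower, with a median of 0.02 and 0 called. Rgs9, which speeds the return of Gi/o proteins to rest, had wild-type values of 3.34, 4.66 and 3.93 FPKM and Tet1-deficient values of 2.23, 3.01 and 2.81 FPKM. All Tet1-deficient values were below all wild-type values (log2 difference −0.43, SE 0.14, unadjusted p 0.0159 and adjusted p 1.00 by limma). Rgs11, of the same subfamily, lay the other way without overlap, at 5.35 ± 0.979 and 6.59 ± 0.526 FPKM (SD, n = 3, log2 difference 0.27, adjusted p 1.00 by limma). Rgs4, the most abundant gene of the list and a regulator of group I signalling, measured 138 ± 32.9 and 154 ± 23.1 FPKM (SD, n = 3) with overlap.

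The remaining lists were close to 0. Presynaptic partners of group II and III receptors were higher for 6 of 11 genes (median 0.01, 0 called), and Elfn1, whose postsynaptic product binds group III receptors across the cleft, differed by −0.09. Effectors of group I long-term depression were higher for 9 of 13 genes (median 0.00, 0 called). Among them Arc, which drives removal of AMPA receptors, measured 216 ± 7.73 and 215 ± 49.2 FPKM (SD, n = 3). Glutamate transporters and supply genes were higher for 8 of 16 (median 0.00, 0 called), with Glul, the glutamine synthetase gene of astrocytes, at 831 ± 41.8 and 909 ± 42.8 FPKM (SD, n = 3, log2 difference 0.13, adjusted p 1.00 by limma). Rimkla, which encodes an enzyme that makes the mGlu3 ligand N-acetylaspartylglutamate, was a further pathway gene without overlap (log2 difference −0.07) and was named after its values were seen.

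**Figure D4:**
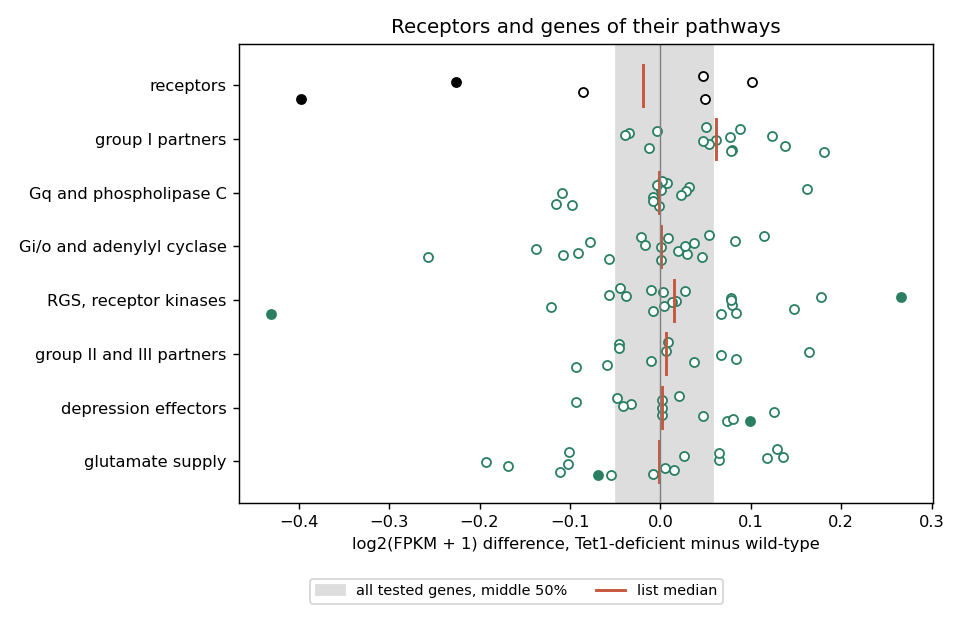
Log2(FPKM + 1) difference, Tet1-deficient minus wild-type, of the 6 receptors (black) and the tested genes of 7 pathway lists (green), with filled points where the genotypes do not overlap, red bars at list medians, and a grey band between the quartiles of all tested genes. Grm2 and Rgs9 lie farthest to the left, and the medians of the 7 pathway lists lie between 0.00 and 0.06.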

How the data were processed

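RNA sequencing of whole hippocampus gave 6 libraries, 3 per genotype, grouped by the genotype label. The authors deposited FPKM values in 1 table of genes by libraries, made with TopHat2 2.0.9 and Cufflinks 2.1.1 on build mm10, per the submitters' processing notes. The sources used here do not give their annotation, strand setting or filters. Read depth cannot be read from FPKM, so no interval that needs counts is given. Genes whose mean reached 1 FPKM were taken as log2(FPKM + 1), where the pseudocount of 1 shrinks differences of low genes, and fitted with limma 3.58.1 (R 4.3.3; intensity trend, no covariate, two-sided), with Benjamini-Hochberg adjustment over all 12533 genes and a threshold of 0.05. This procedure was tested on simulated data. Each gene was drawn independently there, so that test did not include the library split. Exact permutation tests used SciPy 1.17.1 and Python 3.11.15. P-values measure the spread between libraries; the design text counts 3 mice per genotype.

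Named genes are the receptors, the 2 smallest p-values and the most abundant gene of each pathway list, and the 3 genes most like each receptor; not all are reported. Members and lists were chosen with earlier results of these data known. Gene positions are from GENCODE M21 (GRCm38, the same assembly as mm10) and promoters from RefSeq (GRCm38.p6). Alternatives were a pseudocount of 0.1, no filter, median-of-ratios scaling, quantile normalization, no trend, library weights, a threshold of 0.1 and leaving out each library. Added after seeing the data were the library split as a term, the 4 libraries that lie together, and removal of spline trends (5 degrees of freedom) on GC content and transcript length, which were known for 94.2% of tested genes.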

Additional observations from a re-analysis of the deposited data

How the results depend on the processing

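Grm2, Grm3, Grm7 and Grm8 kept the sign of their difference in all 15 alternatives run for each, and no receptor passed the threshold in any of them. The sign of Grm4 turned in 3 of them, with 0.019 in the 4 libraries that lie together and a range from −0.26 to 0.15 when 1 library was left out. That of Grm5 turned in 2, with a range from −0.083 to 0.15 when 1 library was left out. The causes were not tested. The count of called genes was 4, and it was 8 with the library split as a term, 59 with library weights, 12 in the 4 libraries that lie together, and 0 to 6 when 1 library was left out. Of the pathway genes, 1 was called with library weights and 0 otherwise. The order of the receptors was the same in all 7 alternatives run for it, though with 5 libraries the exact permutation test cannot go below 0.0625. Leaving out 1 library from 3 leaves 2 to estimate the spread of that genotype, and limma pools it with the other. No paired analysis was possible because the replicate numbers used here only follow the order of the libraries within a genotype, and the numbers that end the titles have 1 value in common between the genotypes. Unknown depth limits what can be said of Grm4 and Grm8, which lie near 2 FPKM.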
